A study of Mus musculus with 12 samples.

Results

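The 10 genes described here encode subunits of the Polycomb repressive complexes: Ezh2, Eed, Suz12, Jarid2, Mtf2, Rnf2, Ring1, Rybp, Kdm2b and Pcgf6. They were chosen by name as core Polycomb genes, and all 10 were found among the 22556 genes counted in every library. Polycomb repressive complex 2 (PRC2) methylates histone H3 to give the H3K27me3 mark, and Polycomb repressive complex 1 (PRC1) attaches ubiquitin to histone H2A. In embryonic stem cells both marks lie over developmental genes that are kept silent. Xist RNA brings both complexes to the X chromosome that it coats, first through variant forms of PRC1 and then through PRC2.

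The RNA that stays with chromatin, which is rich in nascent transcripts, was sequenced from iXist-ChrX cells (ChrRNA-seq), to follow how Xist silences the X chromosome when parts of Xist are missing. These are female mouse embryonic stem cells of mixed 129S and Castaneus descent. A TetOn promoter stands in place of the Xist promoter on the 129S X chromosome, and an rtTA transgene lets doxycycline (Dox) turn Xist on from there. There were 12 libraries, each line being sampled without Dox (0 h) and after 24 h of Dox.

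WT cells, with intact Xist, gave 1 library in each state. XistDelA cells lack the A-repeat region of Xist and gave 3 clones in each state, C1, 2C2 and C11. XistDelm6A/T1_11C cells lack the m6A region downstream of the A-repeat and gave 2 replicates in each state. All lines share the TetOn promoter, the rtTA transgene and the mixed genome. XistDelm6A/T1_11C is 1 clone, so that what the deletion does and what sets this clone apart cannot be told apart, and the deposited data name the deletion in C11 differently from that in C1 and 2C2. Cells were grown on inactivated fibroblasts and plated free of them before RNA was taken.

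Library depth ran from 18893447 to 36007145 counts on genes. Without and with Dox, the totals were 27022431 and 27795782 for WT, 25742430 and 27489603 for C1, 22949578 and 27300014 for 2C2, and 26081951 and 27469878 for C11. For XistDelm6A/T1_11C they were 21551628 and 36007145 in replicate 1 and 18893447 and 21079263 in replicate 2. Levels are given as reads per 1000000 counts on genes (RPM), and as RPM per kilobase of gene span, introns included (RPKM), where genes are compared with each other. The share of counts that could be placed on the 129S or the Castaneus genome lay between 44.6% and 47.1% in each library.

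Dox turned Xist on in every pair of libraries. Xist went from 297 to 5514 RPM in WT, and from 124 to 1543 in C1, 126 to 1267 in 2C2 and 158 to 1600 in C11. In XistDelm6A/T1_11C it went from 100 to 3140 in replicate 1 and from 85.6 to 4576 in replicate 2. Each Dox library lay far above every library without Dox, and at least 98.2% of allelic Xist counts came from the 129S genome in every library.

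The libraries carried the markers of embryonic stem cells. The 9 markers on that list summed to between 1506 and 2250 RPM in the 12 libraries, and the most abundant was Zfp42 in 10 of them, at 493 to 912 RPM. In XistDelm6A/T1_11C it was Esrrb in replicate 1 with Dox and in replicate 2 without Dox, at 843 and 494 RPM. Only Sox2 had a count of 0 in each library, and it lies inside Sox2ot on the same strand, where read pairs were not counted. The 9 fibroblast markers summed to 4.89 to 14.8 RPM, with Col1a2 the most abundant in 10 libraries at 1.52 to 6.88 RPM and Thy1 in both XistDelm6A/T1_11C libraries without Dox at 3.53 and 2.28 RPM, and Lum was at 0 in 10 of the libraries. The 5 primitive endoderm markers summed to 11.8 to 15.9 RPM in WT and XistDelA and to 25.7 to 38.1 RPM in XistDelm6A/T1_11C, where Gata4 led with 10.3 to 17.4 RPM and no marker was at 0. The 4 trophoblast markers summed to 15.6 to 30.5 RPM, most of it Tfap2c, with Cdx2 at 0 in 5 of the libraries. The 4 markers of differentiating cells summed to 26.0 to 81.3 RPM, most of it Otx2, and none was at 0. In such bulk samples fewer cells of a type and less RNA per cell cannot be told apart.

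The Polycomb genes were expressed at very different levels, with Suz12 and Mtf2 at the top and Ring1 at the bottom. Over the 6 libraries without Dox and per length, Suz12, a scaffold subunit of the PRC2 core, stood at 18.7 ± 6.13 RPKM (SD, n = 6). Mtf2, which helps to tether PRC2 to CpG-rich DNA, followed at 18.3 ± 3.04 RPKM, and the ranges of the pair overlapped. Their order turned with the line, with Suz12 at 22.5 and Mtf2 at 20.4 RPKM in XistDelA and at 12.3 and 14.6 RPKM in XistDelm6A/T1_11C. Jarid2, another accessory subunit that helps PRC2 onto chromatin, stood at 10.4 ± 1.24 RPKM, below every Mtf2 value. Eed, the PRC2 core subunit that reads H3K27me3, stood at 7.38 ± 1.09 RPKM, below every Jarid2 value.

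Rybp, a subunit that marks variant PRC1, stood at 6.56 ± 1.41 RPKM and overlapped with Eed. The catalytic methyltransferase subunit Ezh2 stood at 3.84 ± 0.13 RPKM, below every Rybp value. Rnf2, which encodes the ubiquitin ligase RING1B, stood at 3.30 ± 0.29 RPKM, and Pcgf6, a PCGF subunit of variant PRC1, at 3.15 ± 0.84 RPKM. The ranges of Ezh2 and Rnf2 overlapped, as did those of Rnf2 and Pcgf6. Rnf2 lay below Pcgf6 in XistDelA, at 3.48 against 3.59 RPKM, and above it in XistDelm6A/T1_11C, at 2.98 against 2.14 RPKM. Kdm2b, the demethylase that brings variant PRC1 to unmethylated CpG islands, stood at 1.29 ± 0.15 RPKM, below every Pcgf6 value. Ring1, the paralog of Rnf2, came last at 0.377 ± 0.09 RPKM, below every Kdm2b value. These values rest on 27 to 42 counts a library, and over the 14993 genes whose mean reached 10 counts the median was 0.746 RPKM.

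By RPM alone, with no division by length, the long gene Jarid2 came first at a mean of 1991 RPM. As counted, Suz12 spans chr11:79993105-80034123, Mtf2 chr5:108065673-108109219, Jarid2 chr13:44730773-44921643, Eed chr7:89954653-89980976 and Ezh2 chr6:47530273-47595030. Rybp spans chr6:100228564-100287358, Pcgf6 chr19:47033618-47050845, Rnf2 chr1:151469405-151500823, Kdm2b chr5:122870674-122989092 and Ring1 chr17:34020791-34024680, and no other counted gene overlaps any of them on either strand. All are annotated as protein coding in GENCODE M21, and the counted span ran over introns and exons alike.

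**Figure D1:**
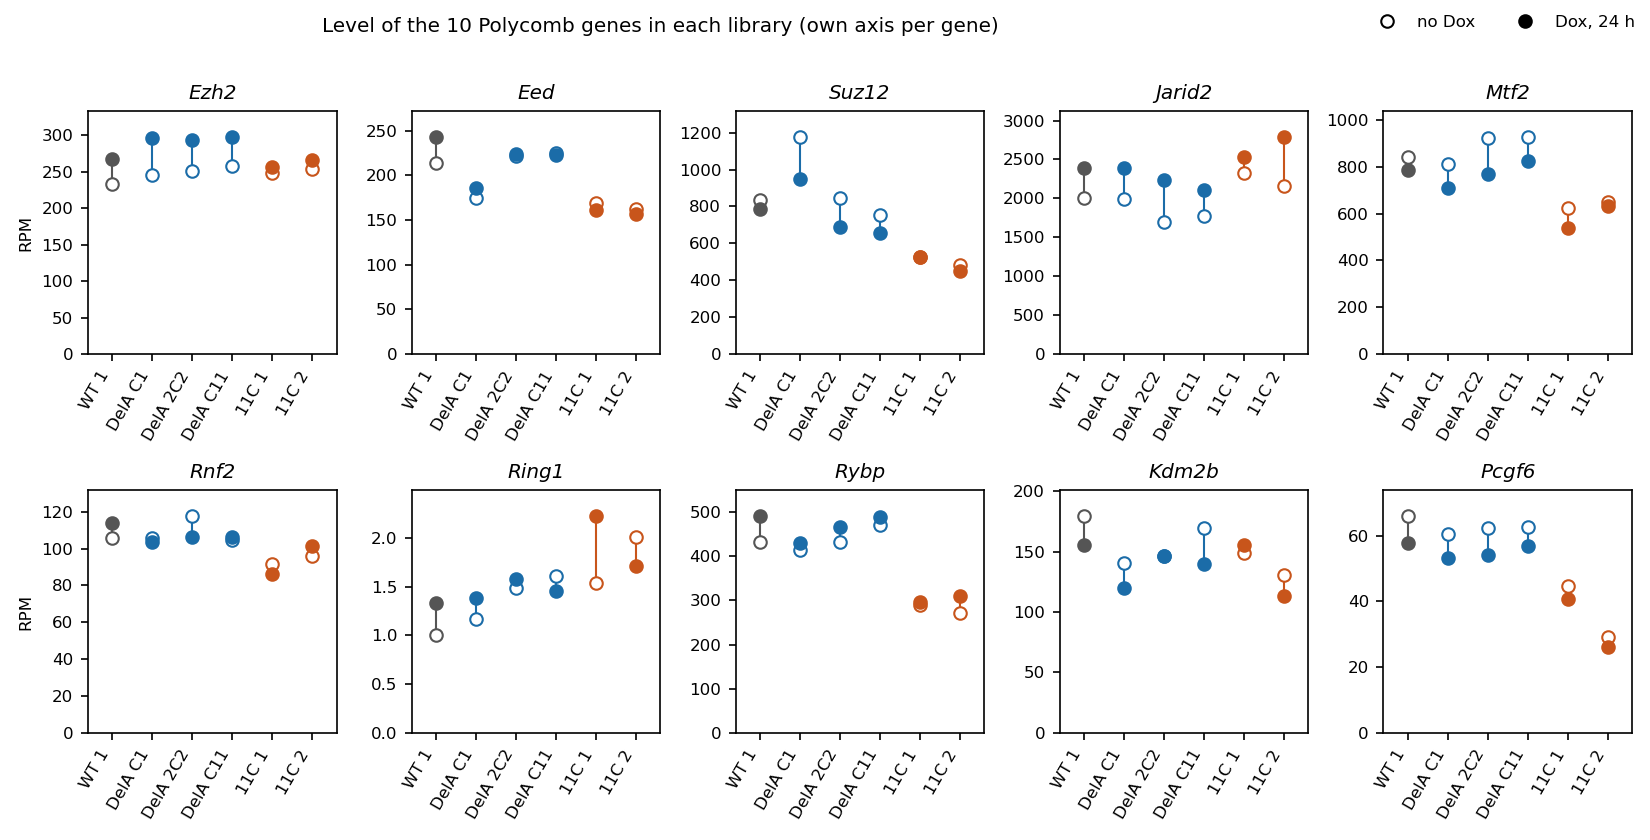
Level of each of the 10 genes in RPM (y axis, from 0, its own scale per gene) in each pair of libraries (x axis, WT 1, the XistDelA clones and the XistDelm6A/T1_11C replicates), with open circles without Dox and filled circles after 24 h of Dox. Suz12, Mtf2, Rybp and Pcgf6 are lower in both XistDelm6A/T1_11C replicates than in the XistDelA clones in either state. On the axis, DelA stands for XistDelA and 11C for XistDelm6A/T1_11C.

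The promoters of 4 of these genes are shown from RefSeq on GRCm38.p6. They were chosen after their values were seen, since Suz12, Mtf2 and Pcgf6 fell with Dox in XistDelA and Jarid2 rose. Each stretch is the 120 bases before the start of the RefSeq gene, written along the gene's strand. Capitals mark CpG dinucleotides. The Suz12 stretch is chr11:79992986-79993105 (plus strand), Jarid2 chr13:44730654-44730773 (plus strand), Mtf2 chr5:108065554-108065673 (plus strand) and Pcgf6 chr19:47050907-47051026 (minus strand), and none of the 4 overlaps a GENCODE M21 exon.
Suz12: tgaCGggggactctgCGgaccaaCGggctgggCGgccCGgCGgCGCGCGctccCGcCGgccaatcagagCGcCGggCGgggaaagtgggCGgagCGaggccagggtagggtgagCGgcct
Jarid2: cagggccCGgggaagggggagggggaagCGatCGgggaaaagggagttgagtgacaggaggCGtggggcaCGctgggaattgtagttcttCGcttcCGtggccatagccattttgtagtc
Mtf2: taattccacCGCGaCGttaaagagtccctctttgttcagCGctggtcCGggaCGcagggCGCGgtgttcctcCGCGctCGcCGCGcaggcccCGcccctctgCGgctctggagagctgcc
Pcgf6: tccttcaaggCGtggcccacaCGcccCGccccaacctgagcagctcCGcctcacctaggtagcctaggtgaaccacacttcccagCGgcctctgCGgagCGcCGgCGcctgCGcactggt

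These promoters were rich in CpG. The 250 bases upstream of the start held 37 CpG in Suz12, 23 in Jarid2, 23 in Mtf2 and 14 in Pcgf6, against a median of 6 over 32851 promoters. RefSeq promoters were found for 9 of the 10 genes, all but Rybp, and these held from 12 to 37 CpG. Of all promoters, 66.5% held fewer CpG than the lowest of these, so many other promoters reached the same range. Motifs were searched on both strands of the same 250 bases. The E2F motif (TTTCGCGC or TTTGGCGC) was found in 0 of 9, against 0.654% of all promoters, and the YY1 motif (AAGATGGC) in 0 of 9, against 1.56%. CCAAT was found in 3 of 9, Ezh2, Suz12 and Jarid2, against 33.8% of all promoters.

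With Dox in the XistDelA clones, Ezh2 and Jarid2 rose and Suz12, Mtf2, Kdm2b and Pcgf6 fell, each by less than 1.5-fold. Eed, Rnf2, Ring1 and Rybp did not pass the test. These calls come from a fit in which each clone is compared with itself, and none of the 10 passed when the 6 libraries were taken as independent. The comparison asks what 24 h of Dox, with Xist lacking its A-repeat turned on, goes along with in these genes. Xist was on in every Dox library of every line. What Xist does therefore cannot be told apart from what Dox itself or the 24 h does.

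For the PRC2 core, Ezh2 stood at 246, 252 and 258 RPM without Dox in C1, 2C2 and C11 and at 297, 293 and 297 RPM with Dox. All 3 Dox libraries lay above all 3 without Dox. With clones as blocks Ezh2 rose by a log2 fold change of 0.21 ± 0.05 (SE), with an adjusted p of 0.00110 in the edgeR quasi-likelihood test (Benjamini-Hochberg). Suz12 stood at 1176, 845 and 752 RPM without Dox and at 950, 688 and 658 RPM with Dox. It was lower with Dox in 3 of 3 clones, but the groups overlap, since C1 lay above the other clones in both states. With clones as blocks Suz12 fell by a log2 of 0.29 ± 0.05, with an adjusted p of 1.33e-05 in the same edgeR test. Eed stood at 175, 221 and 225 RPM without Dox and at 186, 224 and 223 RPM with Dox, and these groups overlap. Its log2 fold change was 0.00 ± 0.05 with blocks, with an adjusted p of 0.964.

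For the accessory subunits, Jarid2 stood at 1989, 1691 and 1772 RPM without Dox in C1, 2C2 and C11 and at 2392, 2237 and 2113 RPM with Dox. Every Dox library was above every library without Dox. Jarid2 rose by a log2 of 0.28 ± 0.04 with clones as blocks (edgeR quasi-likelihood test, Benjamini-Hochberg adjusted p = 1.64e-05). Mtf2 stood at 814, 924 and 927 RPM without Dox and at 712, 771 and 825 RPM with Dox. It was lower with Dox in 3 of 3 clones, and C11 with Dox lay just above C1 without Dox, so the groups overlap. Mtf2 fell by a log2 of 0.24 ± 0.05 with clones as blocks, with an adjusted p of 2.08e-04 in that test.

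Of the PRC1 genes, Pcgf6 stood at 60.5, 62.4 and 62.7 RPM without Dox in C1, 2C2 and C11 and at 53.3, 54.1 and 56.8 RPM with Dox. All 3 Dox libraries lay below all 3 without Dox. Pcgf6 fell by a log2 of 0.20 ± 0.06 with clones as blocks (edgeR quasi-likelihood test, Benjamini-Hochberg adjusted p = 0.00752). Kdm2b stood at 141, 147 and 169 RPM without Dox and at 120, 147 and 140 RPM with Dox. C1 and C11 were lower with Dox, 2C2 was nearly level, and the groups overlap. Kdm2b fell by a log2 of 0.19 ± 0.05 in the same blocked test, with an adjusted p of 0.00507. Rybp, Rnf2 and Ring1 had log2 fold changes of 0.05, -0.08 and 0.03, with adjusted p of 0.482, 0.269 and 0.944.

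In all, 6 of the 10 genes passed with clones as blocks, against 4410 of 14866 genes tested (29.7%), so that a change with Dox in XistDelA was common among genes at large. Without blocks 0 of 10 passed in the edgeR test, against 3 of 14866 genes (0.0202%), which were Xist, Rapgef4 and Cdh3, the latter pair named after their values were seen. At an unadjusted p under 0.05 that fit had 2162 genes and 4 of the 10, and DESeq2 called 421 genes and 0 of the 10. Groups with and without Dox did not overlap for 3 of the 10, against 21.5% of 14993 genes. Leaving out C1 from the blocked fit left 3 of the 10, Suz12, Jarid2 and Mtf2, among 2152 genes, with adjusted p of 0.0957 for Ezh2, 0.118 for Kdm2b and 0.0864 for Pcgf6. The log2 fold changes of Ezh2, Kdm2b and Pcgf6 were then 0.18, -0.17 and -0.21. Leaving out 2C2 left 5 of the 10 among 2786 genes, with an adjusted p of 0.0802 for Pcgf6, and leaving it out of the fit without blocks left 0 genes.

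In XistDelm6A/T1_11C none of the 10 genes passed the test with Dox, and the fitted log2 fold changes lay between -0.16 for Pcgf6 and 0.25 for Jarid2. Jarid2 stood at 2327 and 2161 RPM without Dox in replicates 1 and 2 and at 2530 and 2785 RPM with Dox. Both Dox libraries lay above both without Dox, and the log2 fold change was 0.25 ± 0.29 (SE, n = 2 in each state). Suz12 stood at 527 and 483 RPM without Dox and at 525 and 449 RPM with Dox. Its groups overlap, since replicate 1 did not move, and the log2 fold change was -0.06 ± 0.22. Ezh2 stood at 248 and 254 RPM without Dox and at 257 and 267 RPM with Dox. Its Dox libraries lay above the others by RPM, whereas with TMM scaling replicate 1 turned to a log2 of -0.01, and the fitted change was 0.06 ± 0.22.

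In the edgeR quasi-likelihood test (Benjamini-Hochberg) 0 of the 10 passed in this line, against 0 of 15140 genes (0%). At an unadjusted p under 0.05 there were 173 genes and 0 of the 10, and DESeq2 called 3 genes and 0 of the 10. Leaving out replicate 1 or replicate 2 leaves 1 library a state, so those fits took their spread from the XistDelA libraries. The log2 fold changes of Ezh2, Eed, Mtf2, Rnf2, Ring1 and Rybp differed in sign between those fits. Xist itself had a log2 fold change of 5.40 and an adjusted p of 0.0546 in this fit. Groups did not overlap for 4 of the 10, against 18.2% of 14993 genes. These were Ezh2, Jarid2 and Rybp above and Eed below with Dox, and with TMM scaling they were Jarid2 above and Suz12 below, against 19% of all genes.

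In WT, with 1 library a state and so no test, 0 of the 10 moved past 1.5-fold, against 1380 of 14877 genes (9.28%). Jarid2 stood at 2007 RPM without Dox and 2384 RPM with Dox, a log2 ratio of 0.25 with an exact (Clopper-Pearson) 95% interval from 0.23 to 0.26. Ezh2 went from 233 to 268 RPM, a log2 ratio of 0.20 (interval 0.15 to 0.25). Eed and Rybp had log2 ratios of 0.18 each (intervals 0.13 to 0.23 and 0.14 to 0.22) and Rnf2 one of 0.11 (0.04 to 0.18). These 5 genes were thus higher with Dox beyond counting error. Eed, Rybp and Rnf2 did not pass in XistDelA, but the test there is another and stricter criterion. By RPM, Rybp was higher with Dox in every XistDelA clone, and Eed and Rnf2 moved both ways. Kdm2b went from 179 to 156 RPM, a log2 ratio of -0.20 (interval -0.26 to -0.14). Pcgf6 went from 66.0 to 57.7 RPM, a log2 ratio of -0.19 (interval -0.29 to -0.10). Suz12 and Mtf2 had smaller log2 ratios of -0.08 (interval -0.11 to -0.06) and -0.10 (-0.13 to -0.07). Kdm2b, Pcgf6, Suz12 and Mtf2 were thus lower with Dox beyond counting error. The log2 ratio of Ring1, 0.41, had an interval from -0.34 to 1.19. All intervals given here cover counting error only, since the reads carry no molecular identifiers.

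Across the 6 pairs of libraries, which share no control, several genes kept a direction. Ezh2, Jarid2 and Rybp were higher with Dox in 6 of 6 pairs by RPM, 3 of the 10 against 10.7% of 14993 genes, and with TMM scaling Jarid2 alone was, 1 of the 10 against 9.97%. Suz12, Mtf2 and Pcgf6 were lower in 6 of 6 pairs by RPM, again 3 of the 10 against 8.86%, and with TMM scaling Suz12, Kdm2b and Pcgf6 were, against 8.8%. The XistDelm6A/T1_11C pairs share only a replicate number. Paired the other way, Ezh2, Jarid2 and Rybp stayed higher with Dox by RPM. Suz12 and Pcgf6 were then higher in replicate 1 with Dox (525 and 40.7 RPM) than in replicate 2 without (483 and 29.1 RPM). Mtf2 was higher in replicate 2 with Dox (633 RPM) than in replicate 1 without (623 RPM). For Jarid2 the log2 ratios ran from 0.12 to 0.40 and for Pcgf6 from -0.21 to -0.14. Those of Suz12 ran from -0.31 in C1 to 0.00 in replicate 1 of XistDelm6A/T1_11C.

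**Figure D2:**
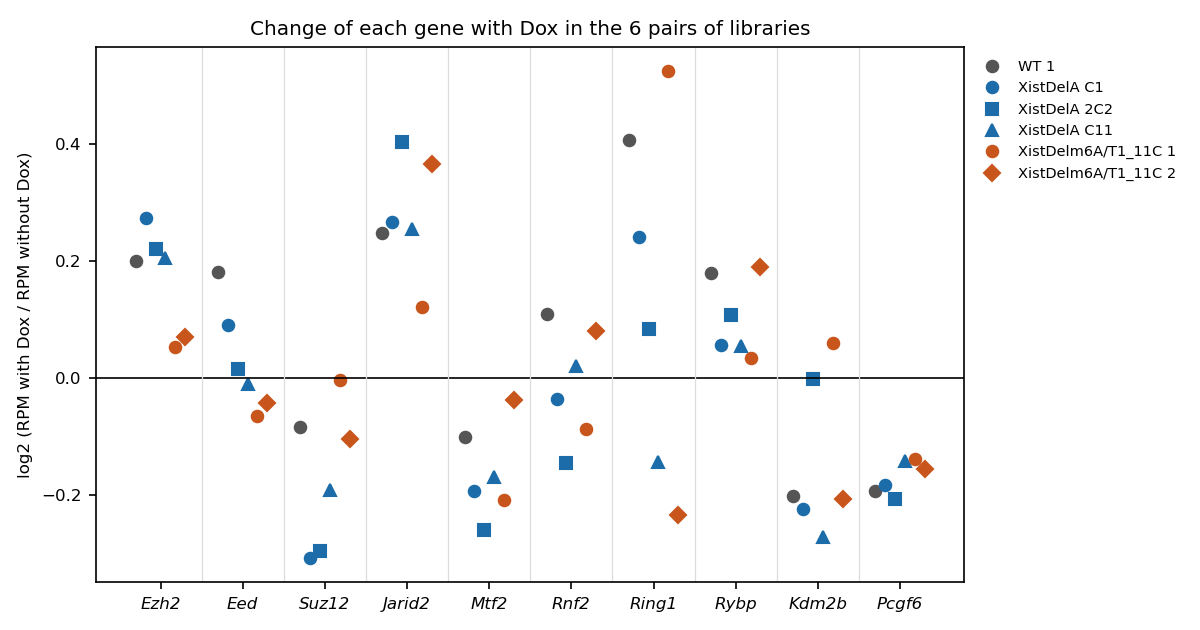
Log2 ratio of RPM with Dox to RPM without Dox (y axis) for each of the 10 genes (x axis) in the 6 pairs of libraries, with the shape and colour of a point giving the line and the clone or replicate. Jarid2, Ezh2 and Rybp lie above 0 and Pcgf6, Suz12 and Mtf2 at or below 0 in all 6 pairs. With TMM scaling, which is not drawn, Jarid2, Pcgf6 and Suz12 keep their side in all 6 pairs, and Ezh2, Rybp and Mtf2 do not.

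Whether the response to Dox differed between the deletion lines was tested directly, and 0 of the 10 passed, against 0 of 15745 genes (0%), in the edgeR quasi-likelihood test (Benjamini-Hochberg). At an unadjusted p under 0.05 there were 233 genes and 0 of the 10, and DESeq2 called 2 genes and 0 of the 10. The interaction term of Suz12 was a log2 of 0.26 ± 0.30 (SE, adjusted p = 1.00), and that of Jarid2 was -0.01 ± 0.24. With blocks for clone and replicate number, 117 genes and 0 of the 10 passed. The Suz12 term was then a log2 of 0.25 ± 0.13 (edgeR quasi-likelihood test, adjusted p = 0.450). The fall of Suz12 in XistDelA was therefore not shown to differ from the values in XistDelm6A/T1_11C.

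Other Polycomb genes moved in both directions with Dox in XistDelA, with clones as blocks in the edgeR quasi-likelihood test (Benjamini-Hochberg). Across the Polycomb lists the counts are to be read against the 29.7% of all genes that passed in this fit. Of 8 further PRC2 genes tested, 1 rose and 2 fell: Ezh1, the paralog of Ezh2, rose by a log2 of 0.25. The X-linked histone-binding subunit Rbbp7 fell by 0.38 and E130012A19Rik, the gene of the PRC2 cofactor EPOP, by 0.71. Of 9 canonical PRC1 genes, Phc2 rose by a log2 of 0.45 and Bmi1, a PCGF subunit, fell by 0.29. Of 18 further variant PRC1 genes, 4 rose (Pcgf5, Auts2, Tfdp1 and Yaf2) and 4 fell (Hnrnpk, L3mbtl2, Mga and Skp1a). Pcgf5, a PCGF subunit of the variant PRC1 that Xist recruits, rose by 0.31, and Hnrnpk, whose product links Xist to that complex, fell by 0.35. The median log2 fold change was 0.00 over the PRC2 list, 0.02 over canonical PRC1 and -0.01 over variant PRC1, beside 0.01 over all 14866 genes.

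Enzymes that oppose Polycomb, genes that it silences and cell markers are given from the same blocked fit, beside the same 29.7% of all genes. Of 9 opposing genes, Foxk2 rose by a log2 of 0.20 and 3 fell, the deubiquitinase gene Bap1 by 0.19, its partner Asxl1 by 0.15 and Hcfc1 by 0.16, with a median of -0.10 over the list. Of 45 Polycomb target genes, the Hox genes among them, 10 had enough counts to be tested, and T, a mesoderm factor, rose by a log2 of 0.53. Among markers, 1 of 8 stem cell genes tested rose (Zfp42, by 0.40) and 4 fell, Klf4 by 0.33, Tfcp2l1 by 0.31, Dppa5a by 0.29 and Pou5f1 by 0.17, with a median of -0.20 over the list, beside 0.01 over all genes. Of the other marker lists, 0 of 7 fibroblast genes passed, Sox7 fell by 1.13 among 5 primitive endoderm genes, Tfap2c rose by 0.37 among 2 trophoblast genes tested and T rose among 4 genes of differentiating cells. Without blocks, and in XistDelm6A/T1_11C, 0 genes of any of these lists passed.

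Comparing the deletion lines with each other, the larger differences appeared. Without Dox, Suz12, Mtf2, Rybp and Pcgf6 were lower in XistDelm6A/T1_11C than in XistDelA, by 1.51- to 1.98-fold, and none of the 10 passed as higher. The lower genes belong to both complexes, and Ezh2 was nearly equal in the lines. The comparison takes 2 replicates of 1 clone against 3 clones, before Xist is induced.

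Suz12 stood at 752, 845 and 1176 RPM in the XistDelA clones without Dox and at 527 and 483 RPM in XistDelm6A/T1_11C. The groups do not overlap, and WT, at 833 RPM, lay within the range of XistDelA. The log2 fold change was -0.99 ± 0.20 (SE), with an adjusted p of 0.0108 in the edgeR quasi-likelihood test (Benjamini-Hochberg). Mtf2 stood at 814, 924 and 927 RPM in XistDelA and at 623 and 649 RPM in XistDelm6A/T1_11C. WT, at 842 RPM, was within the range of XistDelA, and both XistDelm6A/T1_11C libraries lay below it. The log2 fold change of Mtf2 was -0.60 ± 0.15, with an adjusted p of 0.0246 in that test. This call was lost without 2C2 (log2 fold change -0.54, adjusted p = 0.107) or without C11 (-0.56, 0.0852). It was also lost without replicate 1 of XistDelm6A/T1_11C, where the log2 fold change was -0.51.

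Rybp stood at 414, 433 and 470 RPM in the XistDelA clones and at 290 and 272 RPM in XistDelm6A/T1_11C. The groups do not overlap, and WT was at 433 RPM. Its log2 fold change was -0.76 ± 0.14 (edgeR quasi-likelihood test, Benjamini-Hochberg adjusted p = 0.00683). Pcgf6 stood at 60.5, 62.4 and 62.7 RPM in XistDelA and at 44.8 and 29.1 RPM in XistDelm6A/T1_11C, against 66.0 RPM in WT. Again the groups do not overlap, and the replicates of XistDelm6A/T1_11C lay apart from each other. The log2 fold change was -0.87 ± 0.17, with an adjusted p of 0.00868 in the same test. Eed had a log2 fold change of -0.44 and an adjusted p of 0.0685, which was 0.0345 without C1, and Rnf2 one of -0.34 with an adjusted p of 0.104. Ezh2, Jarid2, Kdm2b and Ring1 had log2 fold changes between -0.24 and 0.21, with adjusted p from 0.218 to 0.686.

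Thus 4 of the 10 genes passed without Dox, all lower, against 3483 of 15100 genes tested (23.1%), and DESeq2 also called 4 of the 10, among 3826 genes. Without 2C2 there were 3 of the 10 among 1119 genes, and without C11 3 of the 10 among 2073 genes. Groups did not overlap for 7 of the 10, Jarid2 above and 6 below, against 54.7% of 14993 genes, and with TMM scaling for 8 of the 10, Kdm2b added below, against 55%, so that a separation of the lines was common. The median of all genes shifts by a log2 of -0.11 between total counts and TMM scaling in this comparison, and fold changes from the fits are relative to TMM. The median over the 10 genes was a log2 of -0.39, beside 0.02 over all genes tested.

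With Dox the fitted differences of Suz12, Mtf2, Rybp and Pcgf6 were smaller, and Pcgf6 alone passed. Pcgf6 stood at 53.3, 54.1 and 56.8 RPM in the XistDelA clones and at 40.7 and 26.1 RPM in XistDelm6A/T1_11C. The groups do not overlap, and its log2 fold change was -0.78 ± 0.17 (edgeR quasi-likelihood test, Benjamini-Hochberg adjusted p = 0.0378). Suz12 stood at 950, 688 and 658 RPM in XistDelA and at 525 and 449 RPM in XistDelm6A/T1_11C, again with no overlap. Its log2 fold change of -0.71 ± 0.23 had an adjusted p of 0.0982, and that of Rybp, -0.64 ± 0.19, one of 0.0797. In all, 1 of the 10 passed, against 1157 of 15384 genes (7.52%), and DESeq2 called 3 of the 10, Suz12 and Rybp beside Pcgf6, among 2045 genes. Groups did not overlap for 9 of the 10, against 43.4% of 14993 genes, and with TMM scaling for 7 of the 10, against 44.8%.

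These calls with Dox turned on single libraries. Leaving out 2C2, C1 or C11 left 0 of the 10, with adjusted p for Pcgf6 of 0.151, 0.0790 and 0.147, and 112, 413 and 95 genes in all. The log2 fold change of Pcgf6 was then -0.83, -0.83 and -0.75, about as large as the -0.78 with all clones. Leaving out replicate 1 of XistDelm6A/T1_11C gave 2 of the 10, Rybp and Pcgf6, among 2467 genes. Without replicate 2 there were 6 of the 10, Ezh2, Eed, Mtf2, Rnf2, Rybp and Pcgf6, among 3236 genes, with Suz12 not among them.

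**Figure D3:**
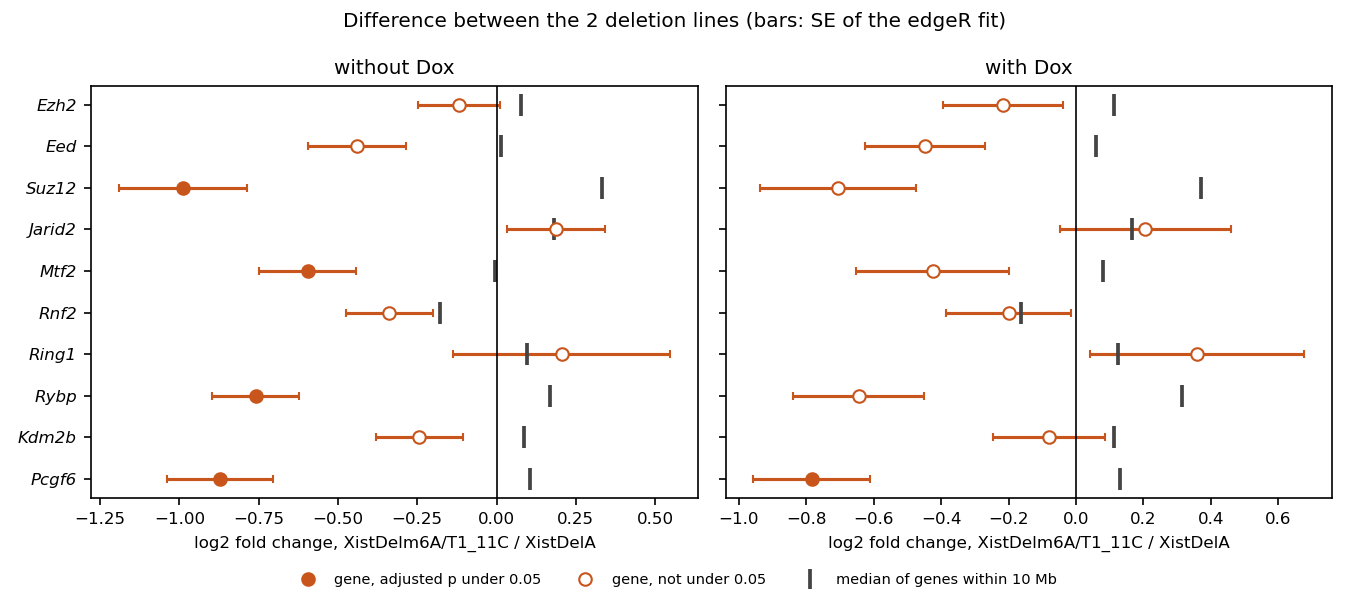
Log2 fold change of each gene between XistDelm6A/T1_11C and XistDelA (x axis, points with SE of the edgeR fit) without Dox and with Dox, filled where the adjusted p was under 0.05, with a tick for the median of the other genes within 10 Mb. Suz12, Mtf2, Rybp and Pcgf6 are filled without Dox and Pcgf6 alone with Dox, and the ticks lie near or above 0 for these genes.

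The chromosomal neighbours of Suz12, Rybp, Pcgf6 and Mtf2 did not share their lower level. Around Suz12 the median log2 fold change of 264 genes within 10 Mb was 0.33 without Dox, so that Suz12 lay 1.32 below its neighbourhood. For Rybp the median of 59 neighbours was 0.17, for Pcgf6 that of 161 was 0.11, and for Mtf2 that of 183 was 0.00. Against their neighbours, Rybp lay 0.93, Pcgf6 0.98 and Mtf2 0.59 lower. For Jarid2, which did not pass the test, the fitted log2 fold change was 0.19 and the median of 109 neighbours 0.18.

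Many other features ran with the line. Rmrp, a small RNA of RNase MRP, stood at 498 to 918 RPM in the XistDelA libraries, 582 and 777 RPM in WT and 4056 to 7638 RPM in XistDelm6A/T1_11C. The libraries of XistDelm6A/T1_11C thus stood apart in this abundant RNA, and the part of this in the Polycomb levels cannot be told apart from the line. In the edgeR test without Dox, where 23.1% of all genes passed, 3 of 5 primitive endoderm markers were higher in XistDelm6A/T1_11C, Gata6 by a log2 of 1.89, Gata4 by 1.55 and Sox17 by 1.49. Of 8 stem cell markers tested, Utf1 was higher by 1.09 and 5 were lower, Klf4 by 1.34, Dppa5a by 0.88, Tfcp2l1 by 0.67, Nanog by 0.58 and Pou5f1 by 0.41. Among 7 fibroblast markers, Pdgfrb was higher by 1.26, and Col1a2 and Col1a1 were lower by 1.71 and 1.42. Tfap2c, of 2 trophoblast markers tested, was higher by 0.74, and among 4 genes of differentiating cells T and Otx2 were higher and Pax6 lower. The part of these markers in the Polycomb differences was not tested.

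Other Polycomb genes passed in both directions between the lines without Dox, where 23.1% of all genes passed. Of 8 further PRC2 genes 4 passed, of 9 canonical PRC1 genes 1 and of 18 variant PRC1 genes 2, and these counts were not tested against that share. Of the PRC2 genes, Ezh1 was higher in XistDelm6A/T1_11C by a log2 of 0.78, and the histone-binding subunits Rbbp4 and Rbbp7 were lower by 0.91 and 0.96 and the accessory subunit Aebp2 by 0.92. Of 9 canonical PRC1 genes, Bmi1 was lower. It stood at 28.4, 39.2 and 35.3 RPM in the XistDelA clones C1, 2C2 and C11 and at 8.82 and 11.96 RPM in XistDelm6A/T1_11C, which do not overlap. Its log2 fold change was -1.83 ± 0.23 (SE; edgeR quasi-likelihood test, Benjamini-Hochberg adjusted p = 0.00238). Of 18 further variant PRC1 genes, Bcorl1 was higher by 0.72 and L3mbtl2 lower by 0.49. Of 9 opposing genes, the H3K27 demethylase gene Kdm6b was higher by 0.90 and its X-linked relative Kdm6a lower by 0.66, beside Asxl1 by 0.69 and Asxl2 by 0.50.

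Of 10 Polycomb target genes tested, 5 passed, against the same 23.1%: Gata6, Gata4, Sox17 and T were higher in XistDelm6A/T1_11C and Pax6, a neural factor, was lower by a log2 of 1.57. All 5 are also on the lists of primitive endoderm or differentiating cell markers, and no Hox gene passed. The sum over the 45 target genes was 14.5 to 23.7 RPM in WT and XistDelA libraries and 28.8 to 36.8 RPM in XistDelm6A/T1_11C. Gata4 and Gata6 made up most of the sums in XistDelm6A/T1_11C, at 10.3 to 17.4 and 8.20 to 10.3 RPM. They stood at 3.50 to 5.40 and 1.55 to 3.63 RPM in WT and XistDelA. Gata4 was the largest part of these sums in XistDelm6A/T1_11C and in C1 with Dox, and Pax6 in the other 7 libraries, and from 12 to 21 of the 45 genes were at 0 in a library. With Dox 1157 of 15384 genes (7.52%) passed between the lines, and leaving out 2C2 or C11 left 112 or 95 genes in all. Beside that share, Rbbp4, Bmi1 and Pax6 were lower with Dox by 0.81, 1.57 and 1.67. Fbrsl1, Kdm6b, Gata4 and Gata6 were higher by 0.73, 0.94, 1.60 and 1.94. Among the marker lists with Dox, Utf1 was higher by 1.38 and Klf4 and Col1a1 were lower, with log2 fold changes of -1.21 and -1.86, and 0 of 3 trophoblast markers passed the test. The median log2 over the lists without Dox was -0.25 for the PRC2 genes, 0.12 for canonical PRC1, -0.03 for variant PRC1, -0.29 for opposing genes and 0.53 for the 10 targets tested.

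The mean profile of 9 of the 10 genes, Ring1 being left out for its low counts, followed the same division. It lay between 0.07 and 0.17 above its own mean, in log2, in the 8 libraries of WT and XistDelA and between 0.17 and 0.29 below it in the 4 of XistDelm6A/T1_11C. Against the mean of the other 8 genes, itself left out, Rybp had a Pearson r of 0.94 over 12 libraries, Pcgf6 one of 0.88 and Jarid2 one of -0.66. Eed, Mtf2, Rnf2 and Suz12 lay between 0.71 and 0.84, whereas Kdm2b and Ezh2 had only 0.39 and 0.10. Of 12274 other genes, those most like the mean profile were Katnbl1 (r = 0.994), Gm13157 (0.991), Atad1 (0.989), Pop1 (0.988) and Slc25a3 (0.988). The 12 libraries share cell lines, so these coefficients are descriptions.

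The share of a gene's allelic counts that came from the 129S genome tells whether both copies were active, and the Polycomb genes were read from both parental copies in every library with enough counts. Suz12 had a 129S share of 67.9% in C1 without Dox (Wilson 95% interval 66.9 to 68.8), 49.2% in 2C2 (47.9 to 50.5) and 49.6% in C11 (48.4 to 50.8). It was 67.5% (66.1 to 68.9) and 68.0% (66.4 to 69.6) in the replicates of XistDelm6A/T1_11C and 54.2% (53.1 to 55.4) in WT. C1 and both XistDelm6A/T1_11C replicates were therefore high, the other XistDelA clones even, and WT between. The neighbours of Suz12 within 10 Mb had pooled shares of 68.4% in C1, 67.8% in both replicates of XistDelm6A/T1_11C, 52.1% in 2C2, 51.5% in C11 and 55.3% in WT. The share of Suz12 thus lay near that of its region in C1, XistDelm6A/T1_11C and WT, while in both states of 2C2 and C11 its interval lay below that of the neighbours. Relative to the median library, the median level of these neighbours was 0.24 higher in log2 in C1 and 0.21 and 0.20 higher in the replicates of XistDelm6A/T1_11C, without Dox. It was lower by 0.28 in 2C2 and by 0.14 in C11.

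Kdm2b leaned the other way in every library. Its 129S share ran from 36.1% in C11 without Dox to 41.4% in replicate 1 of XistDelm6A/T1_11C with Dox, with 36.1%, 37.0%, 37.5%, 38.4%, 39.7% and 40.1% in the libraries without Dox. All 12 values lay below those of its neighbours, which ran from 52.1% to 53.3%. Ezh2 and Pcgf6 also lay below their neighbours in all 12 libraries, and Jarid2 and Mtf2 above theirs. Mtf2 leaned towards 129S, with 56.0% to 60.4% against 51.6% to 53.7% for its neighbours. Jarid2 ran from 47.7% to 54.1% and Ezh2 from 46.5% to 56.6%, where both WT libraries were the highest at 56.6%. The neighbours of Ezh2 were also highest in WT, at 59.1% and 59.2%, against 53.9% to 56.3% in the other libraries. Eed, Rybp and Pcgf6 lay between 43.0% and 53.7%. Ring1 had only 6 to 33 allelic counts a library, too few for its share to be read.

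None of the 10 shares passed a test across genes, by edgeR quasi-likelihood tests (Benjamini-Hochberg). For Dox in XistDelA there were 0 of 10, against 0 of 13390 genes (0%), with 515 genes and 2 of the 10 at an unadjusted p under 0.05, and with clones as blocks 0 of 10 against 1.05%. For Dox in XistDelm6A/T1_11C there were 0 of 10 against 106 of 13710 genes (0.773%), with 536 genes and 0 of the 10 at an unadjusted p under 0.05. Between the lines there were 0 of 10 against 2 of 13352 genes (0.015%) without Dox, Hist1h2bb and Casc5, named after their values were seen, with 1402 genes and 2 of the 10 at an unadjusted p under 0.05. With Dox there were 0 of 10 against 84 of 13755 genes (0.611%), with 1442 genes and 1 of the 10 at an unadjusted p under 0.05. No other tool was run on the shares. Without C1, Suz12 passed, with a log2 ratio of 1.11 between the lines without Dox (adjusted p = 5.35e-04, among 591 genes) and of 1.14 with Dox (7.06e-04, among 742 genes). With C1 kept, leaving out another library gave 0 or 1 gene without Dox. With Dox it gave 1 gene without 2C2, 40 without C11, 1 without replicate 1 of XistDelm6A/T1_11C and 15 without replicate 2.

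Rnf2 had the smallest p of the 10 shares with Dox in XistDelA, though it did not pass. Its 129S share went from 50.3% to 56.0% in C1, from 53.4% to 56.6% in 2C2, from 55.1% to 58.1% in C11 and from 52.9% to 56.7% in WT. In XistDelm6A/T1_11C it went from 61.6% to 60.7% in replicate 1 and from 55.6% to 54.2% in replicate 2. The share was higher with Dox in 4 of 4 pairs of WT and XistDelA. In XistDelm6A/T1_11C the intervals overlapped almost fully (58.1 to 65.0 and 57.8 to 63.5, then 51.7 to 59.4 and 50.8 to 57.6), so no movement was shown there. In C1, where the distance was largest, the Wilson 95% intervals were 47.1 to 53.4 without Dox and 53.2 to 58.8 with Dox. They overlap slightly, which by itself does not place the difference within counting error. The log2 change of the 129S to Castaneus ratio in XistDelA was 0.23 ± 0.08 (SE) with clones as blocks, and its adjusted p was 0.127 in the edgeR quasi-likelihood test. In XistDelm6A/T1_11C it was -0.06 ± 0.16, with an unadjusted p of 0.704.

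**Figure D4:**
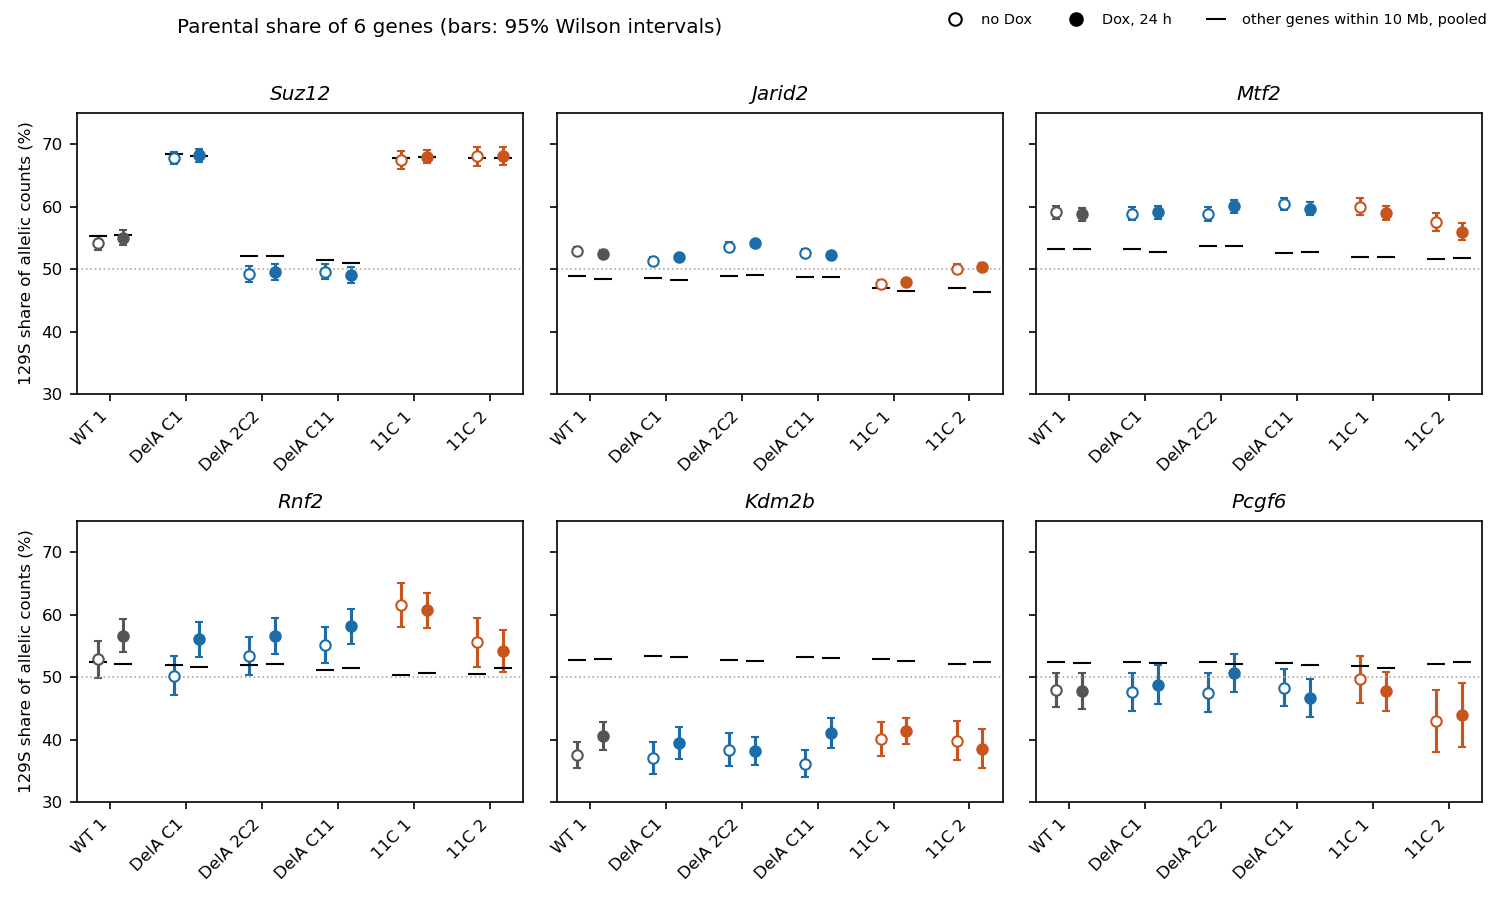
Percent of allelic counts from the 129S genome (y axis) for 6 genes in each pair of libraries (x axis), open without Dox and filled after 24 h of Dox, with Wilson 95% intervals as bars and short lines for the other genes within 10 Mb. Suz12 lies near 68% with its neighbours in C1 and both XistDelm6A/T1_11C replicates. Kdm2b and Pcgf6 lie below their neighbours in all 12 libraries, and Jarid2 and Mtf2 above theirs.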

How the data were processed

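Counts per gene, of both genomes and of each parental genome, were deposited by the authors, who aligned read pairs with STAR 2.4.2a after removing ribosomal reads with Bowtie2 2.3.2 and counted them with featureCounts 1.5.2, with no normalisation. RPM divides by all counts on genes of a library, and RPKM divides by the span given in the files. Each comparison was fitted in edgeR 4.0.16 (R 4.3.3) on all genes kept by filterByExpr (minimum count 10), with TMM scaling, quasi-likelihood tests and Benjamini-Hochberg adjustment over all genes tested, and a threshold of 0.05. DESeq2 1.42.0 was the other tool.

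Clones of XistDelA pair the samples: over 12283 genes, deviations from the group mean correlated between the states of a clone at r of 0.828, 0.636 and 0.733. Blocked values therefore stand beside the others. Between clones r was -0.113 at most, but deviations from a shared mean sum to 0, which pushes these values down, so they are no independent baseline. The 129S share was tested as the interaction of parental genome and condition. Single libraries were compared past 1.5-fold. The genes named by rule are all 10 members, Xist, up to 3 list genes per direction and comparison past the threshold, with or without blocks, by smallest adjusted p, and the 5 genes most like the members' mean. Further list genes past the threshold, the marker genes at 0 or most abundant, Rmrp, Rapgef4, Cdh3, Hist1h2bb and Casc5 were named after their values were seen. Lists were further PRC2, canonical PRC1 and variant PRC1 genes, opposing enzymes, target genes, and markers of stem cells, fibroblasts, primitive endoderm, trophoblast and differentiating cells. Correlations of each member with the mean of the others were added after seeing the data. Members and lists were chosen with earlier results of these data known.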

Additional observations from a re-analysis of the deposited data

Results flagged for a closer look

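The 129S share of Rnf2 had differences of opposite sign with Dox in the deletion lines, small in XistDelm6A/T1_11C. It was higher with Dox in all 3 XistDelA clones, by 5.80, 3.20 and 3.01 percentage points in C1, 2C2 and C11. This rise did not pass the edgeR test, with an adjusted p of 0.127 with clones as blocks. The Wilson 95% intervals overlapped in all 3 clones, only slightly in C1, which by itself does not place the rise within counting error. In both XistDelm6A/T1_11C replicates the differences were -0.904 and -1.36 points, within counting error, since the Wilson 95% intervals overlapped almost fully, and the edgeR test of that line gave a log2 change of -0.06 ± 0.16 (SE, unadjusted p = 0.704). The mean of XistDelm6A/T1_11C minus the mean of XistDelA was -5.14 percentage points. This difference was not tested.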

How the results depend on the processing

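Over single genes and alternatives, 631 values kept their direction and side of the threshold or moved within their spread, 45 turned direction, 10 fell short of the threshold, 19 newly passed and 21 moved. Over counts and mean levels, 104 values stayed within 1.5-fold or their spread and 48 did not. DESeq2 called 421 genes for Dox in XistDelA, 3 for Dox in XistDelm6A/T1_11C, 2 for the difference of the Dox response, and 2045 with 3 of the 10 between the lines with Dox. With all 12 libraries in 1 fit, the latter gave 2584 genes and 3 of the 10, and Dox in XistDelm6A/T1_11C gave 2, as it did with no filter on low counts. With a replicate block, Dox in XistDelA gave 4410 genes and 6 of the 10, and its 129S share 140 genes. The replicates of XistDelm6A/T1_11C share only a number across states, so their block was run as an alternative, although same-numbered libraries also deviated together (r = 0.773, with only 2 pairs). It gave 237 genes for Dox, 117 for the difference of the response and 200 for the share, with 0 of the 10 in each. At 2-fold, 308 genes passed in WT. The log2 value turned sign for Eed with Dox in XistDelA to 0.00374 with the block and 0.00242 with no filter, for Rnf2 with Dox in XistDelm6A/T1_11C to -0.00776 with the block, for Jarid2 in the difference of the response to 0.00825 with DESeq2 and 0.00828 with its size factors, and for the Rybp share in XistDelm6A/T1_11C to 0.00443 with the block. Leaving out each library in turn gave these ranges, where a lone library was taken to vary like the other groups; those with clones as blocks were added after seeing the data. For Dox in XistDelA 0 to 2 genes passed and the log2 value ran from -0.0338 to 0.0206 for Eed and -0.0656 to 0.12 for Ring1. With clones as blocks 2152 to 4996 genes passed, 3 to 6 of the 10 passed and the log2 value ran from -0.0338 to 0.0252 for Eed and -0.0672 to 0.12 for Ring1. For Dox in XistDelm6A/T1_11C the log2 value ran from -0.0273 to 0.15 for Ezh2, -0.15 to 0.0400 for Eed, -0.29 to 0.0448 for Mtf2, -0.17 to 0.16 for Rnf2, -0.15 to 0.46 for Ring1 and -0.0457 to 0.27 for Rybp. Between the lines without Dox 1119 to 3144 genes passed and the log2 value ran from -0.0652 to 0.45 for Ring1. Between the lines with Dox 95 to 3236 genes passed, 0 to 6 of the 10 passed and the log2 value ran from -0.0432 to 0.36 for Jarid2. For the difference of the Dox response the log2 value ran from -0.14 to 0.0431 for Eed, -0.23 to 0.17 for Jarid2, -0.0456 to 0.28 for Mtf2, -0.0762 to 0.25 for Rnf2, -0.18 to 0.44 for Ring1, -0.0842 to 0.23 for Rybp and -0.00639 to 0.13 for Pcgf6. For the 129S share with Dox in XistDelA the log2 value ran from -0.00791 to 0.0191 for Suz12, -0.0152 to 0.0429 for Mtf2, -0.54 to 0.16 for Ring1 and -0.0149 to 0.12 for Pcgf6. For the 129S share with Dox in XistDelm6A/T1_11C 5 to 51 genes passed and the log2 value ran from -0.20 to 0.00923 for Ezh2, -2.26 to 0.50 for Ring1, -0.0947 to 0.0792 for Rybp, -0.0717 to 0.0772 for Kdm2b and -0.11 to 0.0528 for Pcgf6. For the share between lines without Dox 0 to 591 genes passed, 0 to 1 of the 10 passed and the log2 value ran from -0.11 to 0.0365 for Mtf2 and -0.28 to 0.10 for Pcgf6. For the share between lines with Dox 1 to 742 genes passed, 0 to 1 of the 10 passed and the log2 value ran from -0.21 to 0.0475 for Ezh2, -0.16 to 0.22 for Rnf2, -0.46 to 1.32 for Ring1 and -0.0584 to 0.11 for Kdm2b. The cause was not tested. Ring1, at 27 to 80 counts and 6 to 33 allelic counts a library, is limited by depth.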
